A study of Rattus norvegicus with 79 samples.

Results

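White matter was compared with the medial prefrontal cortex (mPFC) it lies beside, within the same 8 young rats. The rats numbered 121412, 121413, 121445, 121448, 2172, 2173, 2175 and 2176 were chosen because they are labelled young and have a library of each region, which gave 16 of the 79 libraries and 8 of the 31 rats of the series. The series measured messenger RNA in the mPFC, hippocampal region CA1 and white matter of young and aged rats of the F344 strain. The rats had been trained on an operant set shift task and a water maze before the tissue was taken. The age was 5 to 6 months in the young group and 17 to 22 months in the aged group. The labels give no genotype and no agent, and 1 library was made per rat and region, so that the rats are the replicates. The mPFC samples held the prelimbic and infralimbic areas, and the white matter was dissected next to them. The 9 aged rats that have both regions (18 libraries) were used for comparison, since they share no library with the young rats.

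White matter is made of axon tracts. Most of its cells are glia, above all oligodendrocytes, whose wrapped membranes form myelin, together with astrocytes, microglia and vessels. The cell bodies of neurons, and with them most neuronal messenger RNA, lie in the grey matter, and the mPFC is grey matter that also holds glia and some myelinated axons. In bulk tissue of this kind, fewer cells of a type and less RNA per cell cannot be told apart.

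Ensembl numbers are the only names of the genes in the tables, and they could not be paired with gene symbols from the material at hand. Myelin, glial and neuronal markers could therefore not be looked up, and the genes are described in groups set by their levels. The labelled regions were checked against each other with genes chosen in the aged rats alone, as given below. Depth was 6.92 to 14.7 M (mega) reads on genes in the young white matter libraries and 10.1 to 17 M in the young mPFC libraries.

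Some libraries stood apart from the others of their region. On the first principal component of all 16 libraries, which took 61.8% of the variance and placed the regions on opposite sides, the white matter libraries of 121412 (28.33) and 121445 (37.6) lay nearest to the mPFC. The other 6 white matter libraries lay between 57.25 and 94.4. The mPFC library of 121413 (-35.01) lay nearest to the white matter, with the other 7 between -75.28 and -65.33. The white matter library of 121445 was also at the end of the second component (77.54), which took 8.48% of the variance, while the other white matter libraries ranged from -42.56 to 22.86. Values without 121412 and 121445 are given beside the shares of reads, the gene groups and the genes given by number. For the numbers of genes called and of genes at least 2-fold apart, they close this section.

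Most genes differed between white matter and mPFC. Among the 17160 genes tested, 11301 (65.9%) reached a Benjamini-Hochberg adjusted p-value under 0.05 in limma with the rat as a block, so that each rat was compared with itself, and are named as called. Of these, 5594 (32.6% of the genes tested) were higher in white matter and 5707 (33.3%) were higher in the mPFC. The same direction in all 8 rats was observed for 7982 of the genes called (46.5% of the genes tested). Every white matter library was above every mPFC library for 2258 genes called (13.2%), and every mPFC library was above every white matter library for 2243 (13.1%). These counts were 3251 and 3359 of 17146 genes without 121412 and 121445, with fewer libraries to overlap. The common scale used here sets the median difference of all genes to about 0, so that similar numbers of calls in each direction are in large part set by it.

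The split of the calls depends on the scale. The deposited values of the regions appear to have been normalized apart, and 1 size factor per library computed over all 16 libraries was used instead. On the deposited scale, the median difference over all genes moved from -0.001 to 0.139 on the log2 scale, and 6748 genes were called higher in white matter against 4579 higher in the mPFC. The share of calls that were higher in white matter was 49.5% on the common scale and 59.6% on the deposited scale.

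At limits of 4-fold to 16-fold, more genes of the young rats favored white matter than the mPFC. At least a 2-fold difference with an adjusted p-value under 0.05 was observed for 2084 genes (12.1%) higher in white matter and for 2224 genes (13%) higher in the mPFC. At a limit of 4-fold the counts were 550 genes (3.21%) and 384 genes (2.24%). At 8-fold they were 142 (0.828%) and 58 (0.338%), and at 16-fold 22 (0.128%) and 11 (0.0641%). Without 121412 and 121445 the counts at 4-fold were 619 and 545, at 8-fold 187 and 88, and at 16-fold 30 and 16. In the aged rats described below they were 654 and 655 at 4-fold, 127 and 94 at 8-fold, and 22 and 21 at 16-fold. The ratio of mPFC to white matter genes was 1.07 at 2-fold, 0.698 at 4-fold, 0.408 at 8-fold and 0.5 at 16-fold. At 2-fold the direction turned with the scale and the tool, with 2530 genes higher in white matter against 1761 on the deposited scale, 2362 against 1988 at equal totals and 2230 against 2119 in edgeR. It also turned with the rats, with 1596 against 1432 in 121412 to 121448 alone and 2582 against 2900 in 2172 to 2176 alone. At 4-fold to 16-fold white matter also had more genes on the deposited scale and at equal totals. Both of these scales move the median difference toward white matter (0.139 and 0.079), which favors such an excess. With TMM factors, where the median was 0.002, the counts were 554 and 381 at 4-fold, 143 and 58 at 8-fold, and 22 and 11 at 16-fold. Counts at these limits are not given for edgeR or for either number series. All 58 genes that were at least 8-fold higher in the mPFC went the same way in 8 of 8 rats, and so did 140 of the 142 genes higher in white matter. The choice by a large mean difference in the same rats favors this. Of all genes tested, 46.5% were called with the same direction in 8 of 8 rats. The folds given here are on the scale of log2(normalized count + 1), where the pseudocount makes the folds of genes with few reads too small.

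**Figure D1:**
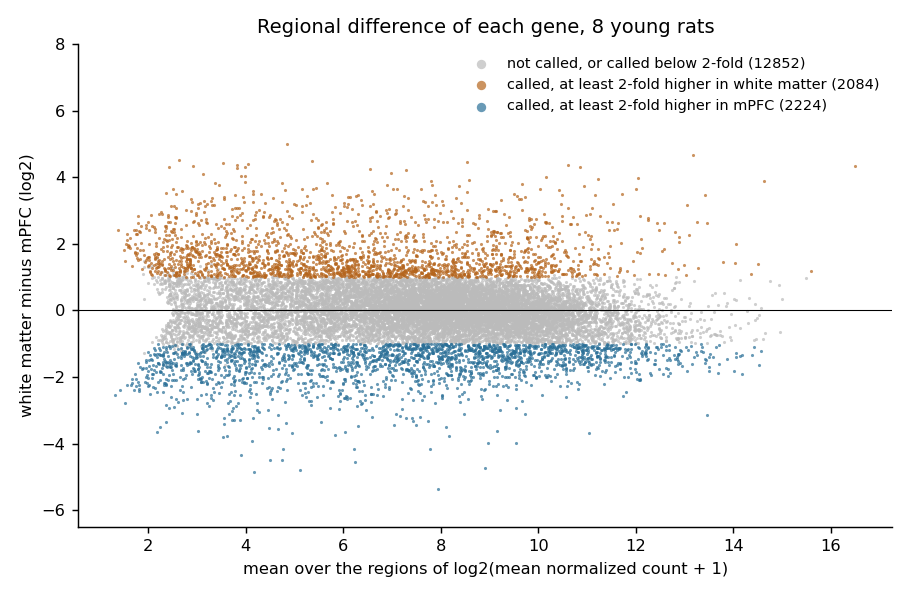
Each point is a gene, placed by the mean over the regions of log2(mean normalized count + 1) on the horizontal axis and by the mean white matter minus mPFC difference of the 8 young rats (log2) on the vertical axis. The 2084 genes colored brown were at least 2-fold higher in white matter and the 2224 colored blue at least 2-fold higher in the mPFC, and the points farthest from 0 are more numerous on the white matter side.

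Calls were made at all levels of expression. In genes with a mean normalized count of up to 20 over both regions, 49.8% of 2499 were called, and in genes above 2000, 82.8% of 1170 were called. The median standard error of the log2 difference fell from 0.358 in the first of these classes to 0.106 in the second. At least a 2-fold called difference was observed for 40.3% of the genes up to 20, for 18.6% of the 6013 genes between 100 and 500, and for 33% of the genes above 2000. The low classes are shaped by the filter, which lets a gene in through the region where it is high. With a mean above 5 required in both regions, 37.8% of 1493 genes up to 20 were called and 24.4% were 2-fold apart, with 33% again above 2000.

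Some differences were estimated closely enough to be bounded. The 95% interval of the difference lay within 1.5-fold of equal for 4872 genes, and 1293 of these were nevertheless called, with small differences. For 1292 genes the interval lay within 1.25-fold. On the deposited scale these counts were 4690 and 1291, and at equal totals 4783 and 1267, for sets of genes that need not be the same. They were 3969 and 772 without 121412 and 121445. Of the 5859 genes not called, 1053 had an interval that reached 2-fold, so that a difference of that size cannot be told from none at this precision.

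Few genes were restricted to a region. Reads in all 8 white matter libraries and in none of the 8 mPFC libraries were counted for 3 genes, with 36 to 328 reads summed over the libraries. The reverse pattern was observed for 4 genes with 31 to 69 summed reads. Setting 3 reads over the 8 libraries as the limit that a count of 0 allows, the gene with the most reads in each set was at least 133-fold higher in white matter and at least 18.9-fold higher in the mPFC, respectively.

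White matter RNA was concentrated in fewer genes. The 10 genes with the most reads in a library took 7.77% ± 1.43 (SD, n = 8) of the reads in white matter and 2.96% ± 0.187 in the mPFC. The share was higher in white matter in 8 of 8 rats, and no white matter library (5.18 to 9.09%) overlapped the mPFC libraries (2.78 to 3.4%). The exact two-sided sign-flip permutation test over the 8 rats gave p = 0.00781, the smallest that 8 pairs allow, and an adjusted p = 0.0137 over 7 library measures. For the top 100 genes the shares were 19.9% ± 1.49 and 16.3% ± 0.304, with the same p-values in the exact permutation test. In the 6 rats other than 121412 and 121445, the top 10 genes took 8.45% ± 0.703 (SD, n = 6) in white matter and 2.97% ± 0.218 in the mPFC. The top 100 genes took 20.6% ± 0.989 and 16.2% ± 0.327 in these 6 rats. The number of genes with a read was not distinguishable once all libraries were brought to the depth of the shallowest, 6.92 M reads. It was 18502 ± 186 (SD, n = 8) in white matter and 18483 ± 89.3 in the mPFC (exact permutation test, p = 0.836, higher in white matter in 5 of 8 rats). Counting error on any of these shares was at most 0.03 percentage points (Wilson 95% interval).

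The gene with the most reads in white matter had normalized counts of 238878 in the lowest library (121445), 460150 at the median and 504205 in the highest (2175). In the mPFC the same gene ranged from 13116 to 34089 with a median of 17881. It took 2.12 to 4.32% of all reads in the white matter libraries. The lowest white matter value was far above the highest mPFC value. The gene with the most reads in the mPFC ranged from 31625 to 48258 there and from 7696 to 22349 in white matter, and took 0.267 to 0.387% of the mPFC reads. Its highest white matter value, in 121412, was below its lowest mPFC value, in 121413. Only 2 genes were among the top 10 of both regions.

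The genes with the largest differences were taken from those called, with a normalized count averaging 50 or more in the higher region and the same direction in 8 of 8 rats. The rule was passed by 3433 genes higher in white matter and 3574 higher in the mPFC. Among the 15 with the largest difference in each direction, the log2 differences were 4.13 to 5.01 toward white matter and 3.73 to 5.37 toward the mPFC. The libraries of the regions did not overlap for any of these 30 genes, against 13.2% and 13.1% of all genes tested, although this selection favors such genes. The 2 with the largest difference in each direction are given by number.

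ENSRNOG00000015156 had the largest log2 difference toward white matter under this rule with 8 rats and a pseudocount of 1. Its normalized count was 111 in the lowest, 145 at the median and 194 in the highest white matter library, and 0.95, 4.72 and 9.46 in the mPFC. The white matter libraries differed little from each other and lay far above all mPFC libraries, where 1 to 9 reads were counted. The log2 difference was 5.01 ± 0.3 (SE, n = 8 rats; adjusted p = 2.86e-08, limma), and 5.004 without 121412 and 121445. With a mean of 4.44 in the mPFC, below the filter of 5, the gene was tested only through white matter, where it is high, and it was not tested when the filter was set in both regions. In region CA1 of the same rats, on a scale set over 51 libraries of 3 regions, the median was 28.3, between those of white matter (126) and mPFC (4.06).

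ENSRNOG00000018700 was a gene with many reads in white matter. It ranged from 20195 (121445) through a median of 44503 to 67365 (2175) in white matter and from 959 through 1437 to 3369 (121413) in the mPFC. The 2 lowest white matter libraries were those of 121445 and 121412, and the 2 highest mPFC libraries were those of 121413 and 121412. The log2 difference was 4.66 ± 0.27 (SE, adjusted p = 2.16e-08, limma), from 3.19 in 121412 to 5.59 in 2173. It was 5.07 without 121412 and 121445 and 4.65 with a pseudocount of 5, where ENSRNOG00000015156 had 5.004 and 4.10, so that the order of these genes is not fixed.

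ENSRNOG00000021256 had the largest log2 difference toward the mPFC under the same rule. It ranged from 783 (121413) through 1261 to 1473 (121412) in the mPFC and from 5.03 (2172) through 28.8 to 157 (121412) in white matter. White matter of 121412 was the highest, that of 121413 followed with 85.7, and that of 121445 was among the lowest with 7.67. The log2 difference was -5.37 ± 0.43 (SE, adjusted p = 2.76e-07, limma), and -5.43 without 121412 and 121445. The gene was as high in CA1 of these rats, with a median of 1306 against 1086 in the mPFC on the scale of 51 libraries.

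ENSRNOG00000019184 was low in white matter and, in most of these rats, in CA1. It ranged from 61.5 through 75.8 to 102 in the mPFC and from 0 through 1.49 to 13.73 (121412) in white matter. No read was counted in white matter of 2172 and 2175, which allows normalized counts of up to 5.03 and 3.64. White matter of 121412 stood above the others, with 12 reads, and the regions did not overlap. The log2 difference was -4.85 ± 0.41 (SE, adjusted p = 4.42e-07, limma), and was -2.08 in 121412 and -5.23 without 121412 and 121445. In rats with no white matter read its size is set by the pseudocount. The gene averaged 3.06 in white matter and was tested only through the mPFC, where it is high, and not when the filter was set in both regions. With a pseudocount of 0.1 it was -6.06, larger than the -5.45 of ENSRNOG00000021256. In CA1 the median was 3.46 and the highest value 32.5.

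**Figure D2:**
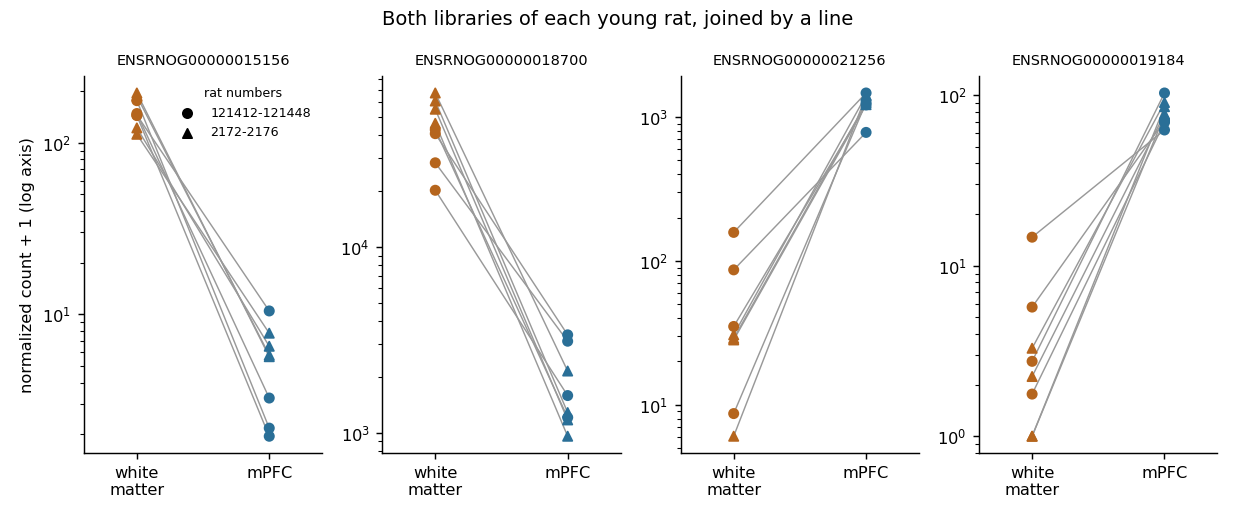
Normalized count + 1 (log axis) of 4 genes in the white matter and mPFC library of each young rat, joined by a line. Circles are rats 121412 to 121448 and triangles are rats 2172 to 2176. In each panel all 8 lines run the same way, which the choice of these genes required, and the regions do not overlap.

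The same comparison was made in the aged rats. Of 16889 genes tested, 12480 (73.9%) were called, with 2699 (16%) at least 2-fold higher in white matter and 2802 (16.6%) at least 2-fold higher in the mPFC. Of the 11301 genes called in young rats, 11129 were tested in aged rats. Of these, 9874 (88.7%) were called in the same direction, 17 in the opposite direction, and 1238 were not called. Of the genes at least 2-fold higher in young white matter, 2008 were tested in aged rats and 1906 (94.9%) were called in the same direction and 1 in the opposite direction. For the genes at least 2-fold higher in young mPFC the counts were 2140 and 2065 (96.5%), with none called in the opposite direction. For comparison, 71.6% of all 16783 genes tested at both ages were called in aged rats with the sign they had in young rats.

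Over all genes called in young rats, the median difference was somewhat larger in the aged rats. The genes called higher in young white matter had a median log2 difference of 0.79 in young and 0.91 in aged rats, and those called higher in young mPFC had medians of -0.81 and -0.93. All 30 genes with the largest young differences were called in the same direction in aged rats, beside 71.6% of all genes tested at both ages. Their aged log2 differences were 2.42 to 4.51 toward white matter and 3.03 to 6.02 toward the mPFC. Some of the 30 averaged below the filter of 5 in their lower region and were tested only through the region where they are high. The aged difference was the smaller for 12 of the 15 white matter genes and 7 of the 15 mPFC genes, which had been chosen for a large difference in young rats. Of the 9 aged rats, 8 have numbers of 4 digits, as have only 4 of the 8 young rats, and the difference in these 4 young rats was about as large as in the aged rats, as given below. Age and number series were thus unevenly combined. Among the 4 genes given by number, ENSRNOG00000021256 had an aged log2 difference of -6.02 ± 0.42 (SE, n = 9 rats; adjusted p = 4.1e-08, limma). ENSRNOG00000019184 had an aged log2 difference of -3.45 ± 0.29 (adjusted p = 1.88e-07, limma), with a median of 41.7 in the aged mPFC. ENSRNOG00000015156 and ENSRNOG00000018700 had aged log2 differences of 4.1 and 4.37.

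**Figure D3:**
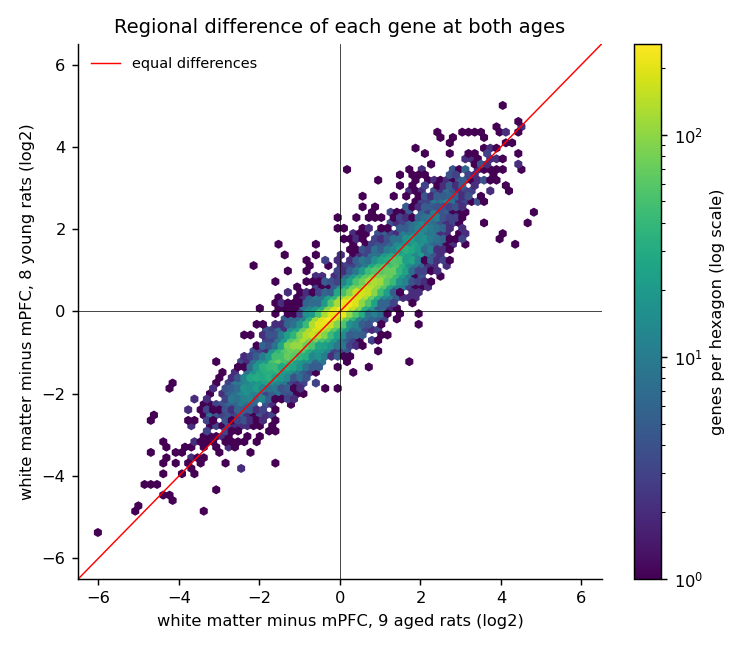
Mean white matter minus mPFC difference (log2) of 16783 genes in the 9 aged rats (horizontal axis) and in the 8 young rats (vertical axis). The color gives the number of genes per hexagon on a log scale and the line marks equal differences. The genes follow the line with a somewhat flatter slope in the young rats, whose own slopes were 0.61 to 1.09.

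Whether the regional difference itself differed with age was tested on the within-rat differences of all 17 rats. By limma, 9 of 17024 genes (0.0529%) had an adjusted p-value under 0.05, and 3513 had an unadjusted p-value under 0.05. The difference was smaller in young rats for 6 of the 9 genes and of opposite sign at the 2 ages for 2. This count was decided by single rats. No gene was called when 121413, 121445, 121448, 2176, 2180, 2184 or 2190 was left out, and 1 gene was called without 2175 and 3 without 2182. It was 4 without 121412, 5 without 2173 or 2191, 19 without 2185, 59 without 121437 and 1184 without 2172. Without 121412 and 121445 together, no gene passed and 2229 had an unadjusted p-value under 0.05. Over the settings with no gene called, 1159 to 3493 genes had an unadjusted p-value under 0.05 in limma. The lowest of these counts, 1159 of 17001 genes, was that of rats 2172 to 2191 alone, which are of 1 number series and fewer. If no gene differed, a share of about 0.05 of the genes tested would pass this limit.

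The size of the regional difference varied between the young rats. Each rat's own white matter minus mPFC difference was regressed on the aged mean difference across 16783 genes, so that a slope of 1 stands for differences as large as in the aged rats. The slope was 0.61 in 121412, 0.613 in 121445, 0.65 in 121413 and 0.817 in 121448. It was 0.859 in 2173, 0.991 in 2175, 0.999 in 2176 and 1.09 in 2172. The 4 rats 2172 to 2176 had a mean slope of 0.985 ± 0.095 (SD) and the 4 rats 121412 to 121448 had 0.672 ± 0.098, with no overlap. This split was examined after the slopes had been seen and is given as a description. A test made of it decides nothing for that reason and is not quoted. In the aged rats, the slope of each on the mean of the others was 0.518 in 121437, the only aged rat with a number of 6 digits, and 0.808 to 1.22 in the other 8.

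Depth also differed between these rats. Rat 2172, with the largest slope, had the shallowest white matter library (6.92 M reads), and 121445, with nearly the smallest, had the deepest (14.7 M). White matter depth was 10.2 M in 121412 (slope 0.61) and 9.9 M in 2176 (slope 0.999). The mPFC library of 2172 was among the deepest (16.1 M). After all libraries were thinned to 6.92 M reads, the slopes were 0.601 in 121412, 0.598 in 121445 and 1.07 in 2172. At full depth they were 0.61, 0.613 and 1.09. Whether depth or another feature of the libraries set the slopes was not tested. What the number series stands for is not given in the labels.

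The calls were made in each number series on its own. The 4 rats 2172 to 2176 gave 10673 called genes and the 4 rats 121412 to 121448 gave 7554. Of 2530 genes at least 2-fold higher in white matter of 2172 to 2176 and tested in both, 2046 were called in the same direction in 121412 to 121448, where 21.8% of all genes tested were called higher in white matter, and 0 in the opposite direction. Their median log2 difference was 1.53 in the first and 1.09 in the second series. Of 2854 genes at least 2-fold higher in mPFC of 2172 to 2176, 2104 were called in the same direction (22.1% of all genes tested) and 1 in the opposite direction, with medians of -1.57 and -0.96. The 2 series share no library, but the genes were chosen where their difference was large in the first.

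Genes chosen in the aged rats gave a check of the labels that does not depend on the young libraries. They were at least 4-fold apart at an adjusted p-value under 0.05, with a normalized count averaging 50 or more in the higher region. All 432 genes so chosen for white matter were called higher in white matter of young rats, where 32.6% of all genes tested were, with a median log2 difference of 2.38 in young and 2.52 in aged rats. Of the 491 genes chosen for the mPFC, 488 were called higher in the mPFC of young rats (33.3% of all genes tested) and 3 were not called, with medians of -1.92 and -2.35. At least a 4-fold difference was kept by 307 of the 432 and by 203 of the 491 genes, beside 3.21% and 2.24% of all genes tested. Without 121412 and 121445 these counts were 335 and 289, and the medians 2.57 and -2.11.

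Every library sided with its label. The mean log2 level of the 432 white matter genes was 8.33 in the lowest, 8.96 at the median and 9.36 in the highest white matter library, against 6.22, 6.38 and 6.88 in the mPFC. That of the 491 mPFC genes was 8.85, 9.38 and 9.49 in the mPFC, against 6.63, 7.26 and 8.08 in white matter. No library of a region reached the range of the other. The 432 genes took 11.8% ± 2.6 (SD, n = 8) of the reads in white matter against 1.33% ± 0.234 in the mPFC, and the 491 genes took 2.7% ± 0.99 and 8.31% ± 0.71 (for both, exact sign-flip permutation test, p = 0.00781, adjusted p = 0.0137, the same direction in 8 of 8 rats). In the 6 rats other than 121412 and 121445 the 432 genes took 13% ± 1.3 (SD) and 1.3% ± 0.257, and the 491 genes took 2.2% ± 0.409 and 8.22% ± 0.815.

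The libraries with small regional differences can be read from these levels. White matter of 121412 had the highest level of the 491 mPFC genes (8.08), followed by 121445 (7.79), and both had the lowest levels of the 432 white matter genes (8.46 and 8.33). Placed between the lowest white matter library (2172, 6.63) and the rat's own mPFC library on the log2 scale, the level of the 491 genes stood 52.5% of the way in 121412 and 42.8% in 121445. It stood at 12.3 to 26.6% in the other 5 rats. In 121413 the mPFC library was the one that differed. It had the lowest level of the 491 mPFC genes (8.85, with the other 7 rats between 9.33 and 9.49) and the highest level of the 432 white matter genes (6.88, with the others between 6.22 and 6.48).

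**Figure D4:**
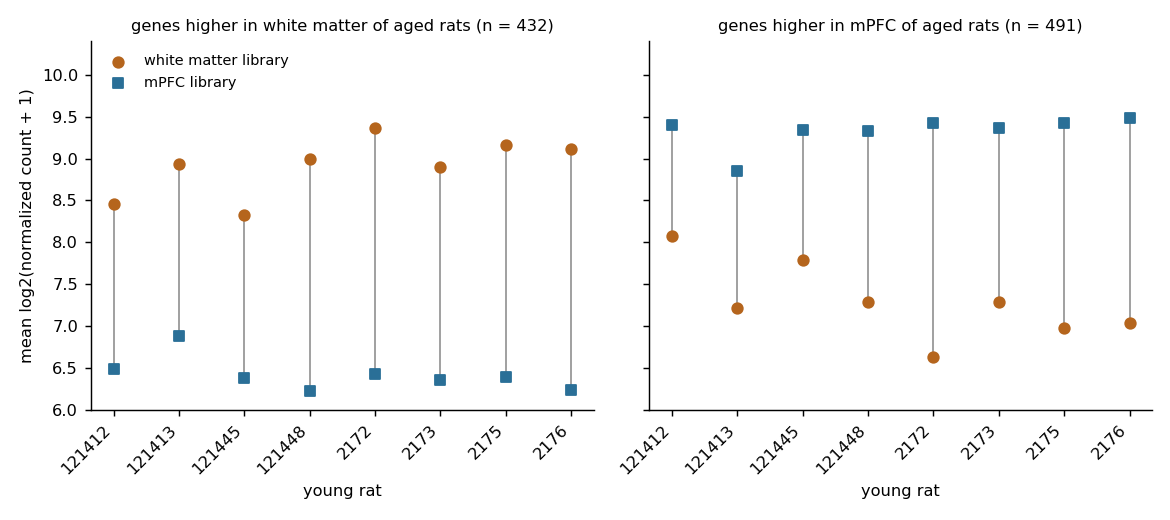
Mean log2(normalized count + 1) of the 432 genes higher in white matter of aged rats (left) and of the 491 genes higher in mPFC of aged rats (right), in the white matter (circles) and mPFC (squares) library of each young rat. The lines joining both libraries of a rat are shortest in 121412, 121413 and 121445 in both panels, and the mPFC library of 121413 stands apart from the other 7.

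Region CA1 of the same rats allowed the mPFC genes to be divided. On the scale of 51 libraries, 60 genes exceeded both white matter and CA1 by at least 4-fold in the mPFC of the aged rats, and 257 genes exceeded white matter by as much but stayed within 2-fold of the mPFC in CA1. In young rats, 57 of the 60 and 257 of the 257 were called in the same direction, as were 33.3% of all genes tested, with median log2 differences of -2.43 and -1.89. The medians were -2.57 and -2.09 without 121412 and 121445. The genes of the first group had a mean log2 level of 4.86 in the lowest, 5.49 at the median and 6.54 in the highest young white matter library, of 7.50, 8.06 and 8.22 in the mPFC and of 4.14, 4.93 and 6.52 in CA1. The highest CA1 level was that of 121413, with 5.52 next. Those of the second group had levels of 6.88, 7.47 and 8.28 in white matter, of 9.15, 9.55 and 9.65 in the mPFC and of 9.11, 9.37 and 9.60 in CA1.

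White matter of 121412 was the highest in both groups (6.54 and 8.28). White matter of 121445 was the next highest in both, with 5.82 in the genes of the mPFC alone, where the other 6 rats were between 4.86 and 5.52, and 8.04 in the genes shared with CA1, where the other 6 rats were between 6.88 and 7.52. For both mPFC genes given by number, white matter of 121412 was the highest of the 8. White matter of 121445 had the next to lowest value of ENSRNOG00000021256 (7.67) and 1 read of ENSRNOG00000019184, of which 6 of the 8 libraries held 0 to 2 reads, too few for a rank. The part of cortex tissue in either library was not tested.

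The white matter genes were divided in the same way. The 103 genes at least 4-fold higher in white matter than in both mPFC and CA1 of aged rats were all called higher in young white matter than in young mPFC, as were 32.6% of all genes tested, with a median log2 difference of 2.97 (3.19 without 121412 and 121445). Their mean log2 level was 8.00, 8.61 and 8.88 in white matter (lowest, median and highest library), 5.30, 5.60 and 5.98 in the libraries of the mPFC and 5.99, 6.47 and 6.69 in those of CA1. The 44 genes that were at least 4-fold higher in white matter than in the mPFC but within 2-fold of white matter in CA1 were also all called, with a median of 1.74 (1.88 without these rats). Their level was 6.97, 7.79 and 8.22 in white matter, 5.66, 5.75 and 6.49 in the libraries of the mPFC and 6.46, 6.83 and 7.67 in those of CA1, so that white matter and CA1 overlapped in young rats. The highest mPFC level of both groups was that of 121413.

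White matter of 121445 held genes at levels found in no other library. A normalized count of at least 50 and of at least 4 times that in each of the other 50 libraries was observed for 20 genes in this library, for none in the other 7 young white matter libraries, and for 1 gene each in the mPFC of 121413 and 2173. The 20 genes took 1.07% of the reads (Wilson 95% interval 1.07 to 1.08%) of this library. Their summed normalized count was 104874 in 121445, with 4186 as the lowest (2172) and 14709 as the median of the 8 white matter libraries. In the mPFC it was 6113, 6348 and 7014, and in CA1 3575, 4466 and 5572 (lowest, median and highest). These values chose the genes and are given as a description.

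In the other young white matter libraries the sum was 21133 in 121412, 19966 in 121413, 15900 in 2176, 13517 in 2175, 7861 in 2173 and 7819 in 121448. Of the 20 genes, 19 had their next highest young white matter value in 121412 or 121413, and 18 had their lowest in 2172. In the 9 aged white matter libraries the sum ranged from 5355 to 17946 with a median of 5562.

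**Figure D5:**
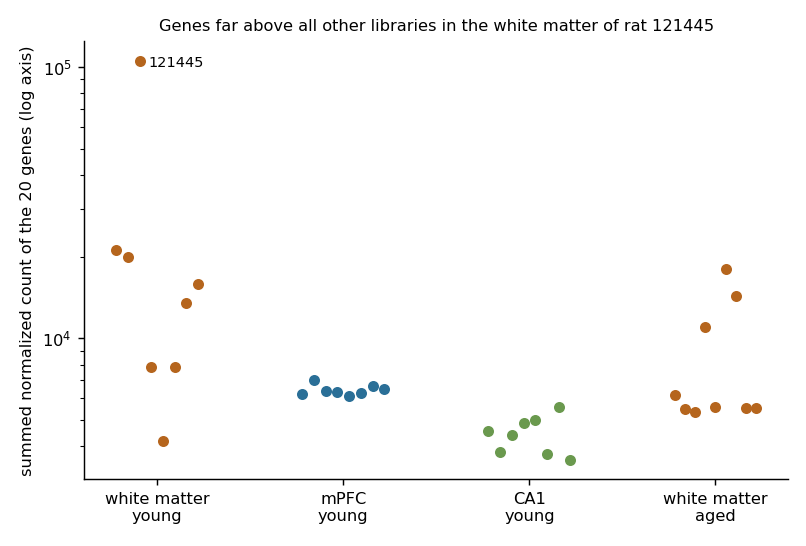
Summed normalized count (log axis, scale of 51 libraries) of the 20 genes that were at least 4-fold higher in the white matter library of 121445 than in each other library. Each point is a library, grouped by region and age, with rats in number order within a group. White matter of 121445 lies at 104874, the other young white matter libraries between 4186 and 21133, and the mPFC libraries between 6113 and 7014.

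White matter libraries differed from each other more than mPFC libraries did. The median over genes of the standard deviation between the 8 rats, on the log2 scale, was 0.326 for white matter and 0.241 for the mPFC, and 12077 of 17160 genes had the larger deviation in white matter. Without 121412 and 121445 the medians were 0.275 and 0.242, and 10216 genes had the larger deviation in white matter. The difference in spread between the regions was thus smaller without these rats and was not tested.

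Without 121413, whose mPFC library stood apart, 11006 genes were called. Without 121412 and 121445, 10948 genes were called, 5396 higher in white matter and 5552 higher in the mPFC. Of these 10948 genes, 10485 were among the 11301 called with 8 rats, all in the same direction. The genes at least 2-fold higher numbered 2303 in white matter and 2531 in the mPFC, of which 1976 and 2145 were also among those found with 8 rats.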

How the data were processed

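Per the labels and the study's methods, polyA-selected RNA was sequenced on the Ion Proton, reads were aligned to rn5 with TopHat2 and Bowtie2 and counted per gene with featureCounts, and DESeq normalized the counts. Versions are not given in the sources used here. The signal values deposited by the authors are counts per gene over a size factor of the library, in 1 table per region of 26689 Ensembl numbers. The size factor was read from a library's smallest positive value and refined on its larger values. With it, 100% of values gave whole reads (largest deviation 6.76e-05 reads). The geometric mean of the size factors was 1.0062 in the white matter table and 1.0103 in the mPFC table.

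The recovered reads were divided by median-of-ratios size factors over the 16 young (or 18 aged, or 34) libraries, and over 51 libraries where CA1 is named. Genes averaging a normalized count above 5 in either region were tested on log2(normalized count + 1), two-sided, with limma 3.58.1 (R 4.3.3; eBayes with a trend), the rat as a block, and Benjamini-Hochberg adjustment. Both libraries of a number come from the same rat; the correlation of their deviations from the region means was -0.11 to 0.306, and 3 of 8 white matter libraries correlated best with their own mPFC library. Whole-library values were tested with exact permutation tests (Python 3.11.15). The gene numbers at equal depth and the Wilson intervals were computed with scipy 1.17.1. The procedure was tested on simulated data.

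Alternatives were other scales (deposited, TMM, equal totals), no block, edgeR 4.0.16, DESeq2 1.42.0, pseudocounts of 0.1 and 5, other filters, thinned reads, an unadjusted p-value under 0.025, and rats left out. Array weights, slopes on thinned reads and the aged-chosen genes without 121412 and 121445 were added after seeing the data. So was the comparison of slopes between the number series. The rats, groups and tests were chosen with earlier results of these data known. Genes given by number were to be the 15 with the largest difference in each direction among genes with a symbol, an adjusted p-value under 0.05, a mean of at least 50 and the same direction in 8 of 8 rats. As 0 of 26689 numbers could be paired with a symbol, 2 a direction are printed and the 38 lists of 513 marker and pathway genes were not applied. Sequences are not printed for the same reason. No pair of libraries of a region was alike within sampling noise (chi-square per gene of at least 3.55).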

Additional observations from a re-analysis of the deposited data

Results flagged for a closer look

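Of 38 sets of 8 values examined, 10 held a library whose gap to its nearest neighbor was wide against the range of the set, where chance gives about 5% of sets. Many of the sets share genes and are not independent. In 8 of the 10 the library was the mPFC of rat 121413. It had the highest share of reads on its top 10 genes (3.4%, next 2.95%) and the lowest share on the mPFC genes chosen in aged rats (6.59%, next 8.36%). Its mean log2 level was 6.88 in the genes higher in aged white matter (next 6.48) and 8.85 in the genes higher in aged mPFC (next 9.33). It was 7.5 in the genes of the mPFC alone (next 7.99), 9.15 in those shared with CA1 (next 9.51) and 6.49 in the genes shared by white matter and CA1 (next 5.85). It was also the lowest for ENSRNOG00000021256, with a normalized count of 783 (next 1217). All of these flagged values lie on the side of the white matter libraries, with the cause not tested. Of the other genes given by number, ENSRNOG00000018700 (3369, the highest mPFC value) also lay toward white matter. ENSRNOG00000019184 (102, the highest) and ENSRNOG00000015156 (2.25, median 4.72) lay away from it.

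The summed count of the 20 genes far above in white matter of rat 121445 was 104874, with 21133 next, in genes chosen for this library. White matter of 121412 had a normalized count of 13.7 of ENSRNOG00000019184, with 4.72 next.

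The white matter minus mPFC difference differed with age for 9 genes by the direct test over 17 rats (limma, adjusted p-value under 0.05), a count that leaving out single rats moved from 0 to 1184.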

How the results depend on the processing

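Of the counts of genes, 83 of 102 alternative values were within 1.5 times the value reported, and all 90 values to be had for the 4 genes given by number kept their direction and an adjusted p-value under 0.05 (limma, edgeR or DESeq2). With the filter in both regions, ENSRNOG00000015156 and ENSRNOG00000019184 were not tested. Genes at least 2-fold higher in the mPFC numbered 1432 in rats 121412 to 121448 alone. Genes whose regional difference differed with age numbered 5 on the deposited scale, 0 without 121412 and 121445, 0 in rats 2172 to 2191 alone, and 0 to 1184 with single rats left out. With no replicate block, 11396 genes were called against 11301 with it, and edgeR and DESeq2 with the replicate block called 11225 and 11214. Leaving the pairing out changed no call among the genes given by number. The gene lists could not be run. Depth limits genes with few reads most, and thinned reads gave 10697 calls.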
